A study of Homo sapiens with 6 samples.

Results

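The 77 genes described here encode most of the proteins of the mitochondrial ribosome; a few others have different names. They were chosen by symbol, as the protein-coding genes of the RefSeq GRCh38 table whose symbol begins with MRPL or MRPS followed by a number. They are 77 of 20037 protein-coding genes, 49 named MRPL for the large subunit and 28 named MRPS for the small subunit. They lie on 21 chromosomes and have a median length of 8618 bp, with a range of 677 to 111543 bp. The symbol rule used no measured value, but the set was chosen with earlier results of these data known.

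Occupancy of MYT1L was measured by CUT&RUN, in which an antibody brings a nuclease to a chromatin protein and the DNA cut free is sequenced. All 6 libraries came from wild-type H1 cells, an established line of human embryonic stem cells, collected at day 30. An anti-MYT1L antibody was used for 4 of them and IgG, the negative control, for the other 2. No treatment or genotype separates the groups, and all cells are of 1 line. The series is described as a study of cortical interneurons made from the stem cells, while each sample carries the cell type embryonic stem cells; peak lists hold no expression values against which either could be checked. Nothing in the labels says whether replicates came from separate cultures, so the spread between them may be technical. The lists held 12310 to 30086 peaks per MYT1L library and 976 and 998 per IgG library. Depth was not given. A pileup is a number of overlapping fragments. The background pileup, a stand-in for depth, was recovered from the values deposited at the peaks, and no fragments outside peaks were counted. It was shared by 5.69% (IgG replicate 2) to 19.7% (MYT1L replicate 1) of a list's peaks with a −log10 p up to 200. It was 1.18, 0.421, 1.05 and 0.895 in MYT1L replicates 1 to 4 and 0.329 and 0.190 in IgG replicates 1 and 2. By this value alone, MYT1L replicate 2 and both controls are called shallow here. MYT1L replicate 4 had a lower value than replicate 1 but more peaks, so the value does not give the order of list lengths. Sample numbers inside the MYT1L lists are each 1 higher than in the titles, and the titles were followed.

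The mitochondrial ribosome translates the few messages of the mitochondrial genome, all of which encode subunits of the respiratory chain and ATP synthase. Its RNAs are made in the organelle, but all of its proteins are encoded in the nucleus, made in the cytosol and imported, so the 2 genomes have to be expressed in balance. Some of the proteins descend from those of the bacterial ancestor and others were added later in evolution. The promoters of these genes are known for short sites of housekeeping factors such as NRF1, the ETS factor GABP and YY1. MYT1L is a zinc-finger factor of neurons, known mainly as a repressor of genes of other lineages, and its fingers recognise a core of AAGTT.

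Of the 77 members, 44 have a systematic name that marks a bacterial counterpart, 31 have a name that marks a protein specific to mitochondria, and 2 (MRPS24 and MRPS28) carry no systematic name in the table. The symbols do not always give the subunit. By their systematic names, mL65 and mL66, MRPS30 and MRPS18A belong to the large subunit, although they are counted with the MRPS genes below. An annotated transcription start could be taken from the RefSeq promoter table for 69 of the 77. The other 8 (MRPL2, MRPL10, MRPL13, MRPL15, MRPL21, MRPL23, MRPL35 and MRPS28) enter only the counts over gene windows.

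The promoters of 7 members are shown first, because the results turn on them. Each runs from 170 bases before the start to the first 30 transcribed bases, 5′ to 3′ on the strand of the gene, from the RefSeq promoter table on GRCh38. Capitals mark 4 short sequences on either strand: AAGTT (the MYT1 family core), TGCGCA (part of the NRF1 site), CCGGAAG (an ETS site) and AAGATGG (a YY1 site). MRPS9 had the highest mean fold among the members called at the start in all 4 MYT1L libraries, MRPS12 shares its promoter with a tRNA synthetase gene, and MRPL27 held the highest single peak. MRPL46 shares its promoter with another member, MRPL48 also had an IgG peak, MRPS21 had a high peak in 1 library alone, and MRPS10 had no peak.

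MRPS9: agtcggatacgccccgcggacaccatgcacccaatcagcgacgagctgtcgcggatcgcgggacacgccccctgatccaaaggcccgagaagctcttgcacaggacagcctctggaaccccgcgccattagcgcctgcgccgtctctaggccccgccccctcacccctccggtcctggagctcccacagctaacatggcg

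MRPS12: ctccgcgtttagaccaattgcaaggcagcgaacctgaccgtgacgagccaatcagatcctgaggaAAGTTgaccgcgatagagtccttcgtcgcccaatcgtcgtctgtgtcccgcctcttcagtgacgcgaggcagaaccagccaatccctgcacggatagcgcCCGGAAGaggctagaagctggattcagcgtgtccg

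MRPL27: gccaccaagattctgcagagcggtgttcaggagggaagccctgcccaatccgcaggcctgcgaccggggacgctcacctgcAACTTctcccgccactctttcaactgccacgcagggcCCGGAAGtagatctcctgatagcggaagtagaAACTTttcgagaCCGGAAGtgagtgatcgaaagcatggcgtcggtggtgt

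MRPL46: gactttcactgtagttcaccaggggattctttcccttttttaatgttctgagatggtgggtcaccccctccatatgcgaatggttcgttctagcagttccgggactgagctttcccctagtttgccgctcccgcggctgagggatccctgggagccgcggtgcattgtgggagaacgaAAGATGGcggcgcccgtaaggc

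MRPL48: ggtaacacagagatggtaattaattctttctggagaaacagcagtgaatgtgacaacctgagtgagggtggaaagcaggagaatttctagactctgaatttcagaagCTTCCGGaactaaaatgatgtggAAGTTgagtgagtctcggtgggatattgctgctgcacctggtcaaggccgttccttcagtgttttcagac

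MRPS21: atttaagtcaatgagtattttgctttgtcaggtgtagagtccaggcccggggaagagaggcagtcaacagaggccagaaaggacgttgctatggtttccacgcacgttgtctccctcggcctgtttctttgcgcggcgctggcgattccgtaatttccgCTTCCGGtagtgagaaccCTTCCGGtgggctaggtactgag

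MRPS10: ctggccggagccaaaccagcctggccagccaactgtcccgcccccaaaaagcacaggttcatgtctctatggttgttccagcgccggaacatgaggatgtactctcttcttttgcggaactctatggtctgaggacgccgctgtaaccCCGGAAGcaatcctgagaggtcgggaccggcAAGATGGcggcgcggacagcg

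The MRPS9 sequence lies at chr2:105037899-105038098 (plus strand), MRPS12 at chr19:38930774-38930973 (plus), MRPL27 at chr17:50373155-50373354 (minus) and MRPL46 at chr15:88467359-88467558 (minus). MRPL48 lies at chr11:73787704-73787903 (plus), MRPS21 at chr1:150293691-150293890 (plus) and MRPS10 at chr6:42217832-42218031 (minus). The 200 bases of MRPS9 hold none of the 4 marked sequences. Those of MRPL27 hold the AAGTT core on the reverse strand, as AACTT, 89 and 20 bases before the start, and CCGGAAG 52 and 8 bases before it. MRPS12 has AAGTT farther upstream and CCGGAAG 5 bases before the start. MRPL46 and MRPS10 carry AAGATGG from 8 and 9 bases after the start. MRPS10 also has CCGGAAG 22 bases before the start, and none of the other 6 sequences holds both of these. A match is a run of letters and not a measured site, and a missing match says nothing about the factor.

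Peaks of the MYT1L libraries that overlapped by at least 1 bp were joined into regions. A region was called reproducible when at least 3 of the 4 MYT1L libraries had a peak in it, and a gene was counted as called when such a region, free of any IgG peak, overlapped its body or 5 kb of either end. By this rule 45 of the 77 members were called, 58.4% (95% Wilson interval 47.3% to 68.8%, counting error only), and the background over all protein-coding genes was 48.0%. That background lies inside the interval. With a peak in at least 2 libraries sufficient the counts were 83.1% of members and 65.3% of all genes, and with all 4 required 24.7% and 25.3%, so the order depends on the rule. Members are short, and among genes within the members' interquartile range of length 22 of 39 members were called (56.4%, interval 41.0% to 70.7%) against 37.1% of all such genes. Long genes offer more room for a region, so this second share sets the members beside genes of like size. Here the background of 37.1% lies below the members' interval, which covers counting error only. The comparison by length was made under the main rule alone.

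The regions lay mainly at promoters. A reproducible region without IgG peak within 1 kb of the annotated start was found at 34 of 69 members, 49.3% (interval 37.8% to 60.8%), against a background of 40.4% of 15842 starts. Among promoters of the members' interquartile range of GC content the count was 17 of 35 members, 48.6%, against 42.6%. Both backgrounds lie inside the members' intervals, so by this rule for the call at the start these genes stood near the genome-wide share. Without the shallow MYT1L replicate 2, and with 2 of the other 3 libraries required, 53 members were called at the start (76.8%), against 52.9% of all starts. When peaks in 2 libraries sufficed, the shares were 79.7% and 54.6%, and with all 4 required 20.3% and 21.3%. Another 4 members (MRPL48, MRPS16, MRPS24 and MRPS27) had a reproducible region at the start that also held an IgG peak and were not counted.

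The single libraries differed more than the call over libraries does. In MYT1L replicate 1, 50 of 69 member starts had a peak within 1 kb (72.5%, interval 61.0% to 81.6%), against 51.4% of all starts. In replicate 2 the count was 23 (33.3%, interval 23.4% to 45.1%), against 30.9%, and in replicate 3 it was 39 (56.5%, interval 44.8% to 67.6%), against 44.2%. In replicate 4, 68 of 69 member starts had a peak (98.6%, interval 92.2% to 99.7%), against 66.4%. The members' share was thus above the background beyond counting error in replicates 1, 3 and 4, by a narrow margin in replicate 3, and not in the shallow replicate 2. Genes that share a promoter share its peak, so the intervals are somewhat too narrow.

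**Figure D1:**
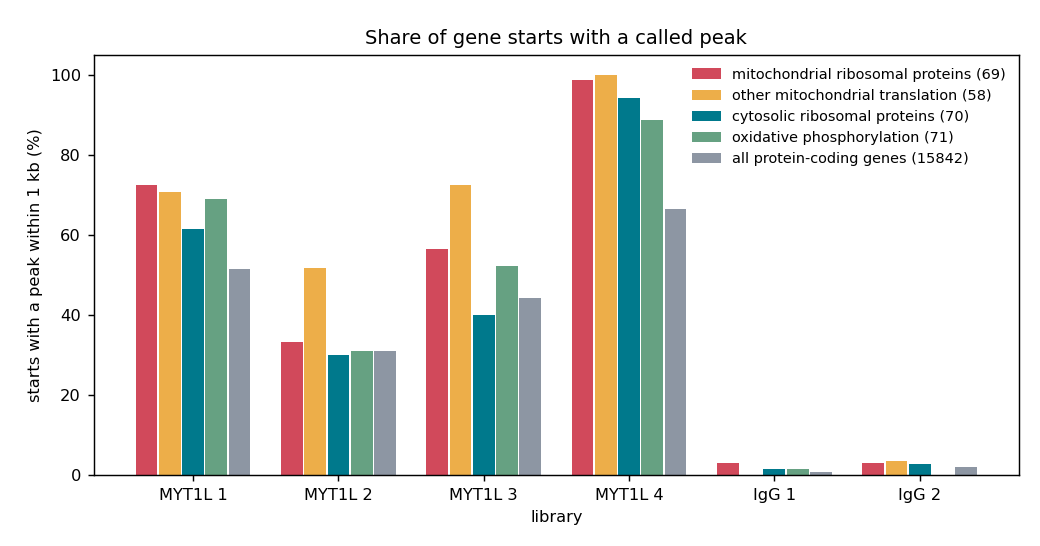
Share of gene starts (%) with a called peak within 1 kb, in each of the 6 libraries, for the mitochondrial ribosomal protein genes and 4 other sets; the number of starts in each set is in the legend, and there are no error bars because each bar is 1 library. In MYT1L replicate 4 the red bar reaches 98.6% against 66.4% of all starts, and in both IgG libraries every set lies below 5%.

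Over the wider gene windows the counts were 61, 28, 50 and 76 of 77 members in MYT1L replicates 1 to 4, or 79.2%, 36.4%, 64.9% and 98.7%. The backgrounds over all genes were 68.0%, 43.0%, 57.3% and 77.6%. In replicate 2 the members' share was the lower of the pair, though its interval of 26.5% to 47.5% holds the background.

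In the IgG libraries the starts of 2 members each had a peak, 2.90% of 69 (interval 0.799% to 9.97%), against backgrounds of 0.713% and 1.98%. Over gene windows 3 and 2 members had an IgG peak, 3.90% and 2.60%, against 1.61% and 2.90%. The group means were 53.75 ± 20.2 members with a peak in the window for MYT1L (SD, n = 4) and 2.5 ± 0.707 for IgG (SD, n = 2), and every MYT1L library lay above both controls. The controls had the lowest background pileup and their lists were the shortest. When only the 976 peaks of lowest p were kept in each of the 6 lists, members with a peak numbered 0, 0, 0 and 6 in MYT1L replicates 1 to 4 and 3 and 2 in IgG, so among the strongest peaks replicate 4 alone lay above the controls, and the part of depth in the full counts was not tested.

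Peaks at member starts were nested. All 50 member starts with a peak in replicate 1, all 23 in replicate 2 and all 39 in replicate 3 also had one in replicate 4. Over all genes the corresponding shares were 95.8%, 97.8% and 97.4%, so the nesting was near that of other starts. A peak in all 4 MYT1L libraries was found at 15 member starts, in replicates 1, 3 and 4 at 17, in replicates 1, 2 and 4 at 6, and in replicates 1 and 4 at 12. Replicates 3 and 4 shared 7 further starts and replicates 2 and 4 shared 2, while 9 starts had a peak in replicate 4 alone and 1, that of MRPS10, in none. Of the members with a peak in replicate 4, 33.8% also had one in replicate 2, compared with 45.5% over all genes.

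The 9 members with a start peak in replicate 4 alone were MRPL1, MRPL12, MRPL22, MRPL28, MRPL52, MRPS2, MRPS18A, MRPS21 and MRPS25. For 8 of them the deposited fold lay between 4.81 (MRPL28) and 6.60 (MRPS2). MRPS21, a small-subunit protein with a bacterial counterpart, stood apart with a fold of 13.2 and a pileup of 30 fragments over a background of 1.35. No other MYT1L library listed a peak at that start. Since the lists hold only peaks that passed a threshold, an unlisted start has a signal below it, not a signal of 0.

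MRPS10, a universally conserved protein of the small subunit, was the only member without a MYT1L peak anywhere in its window (chr6, gene at 42206807 to 42217861). It had no IgG peak either.

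**Figure D2:**
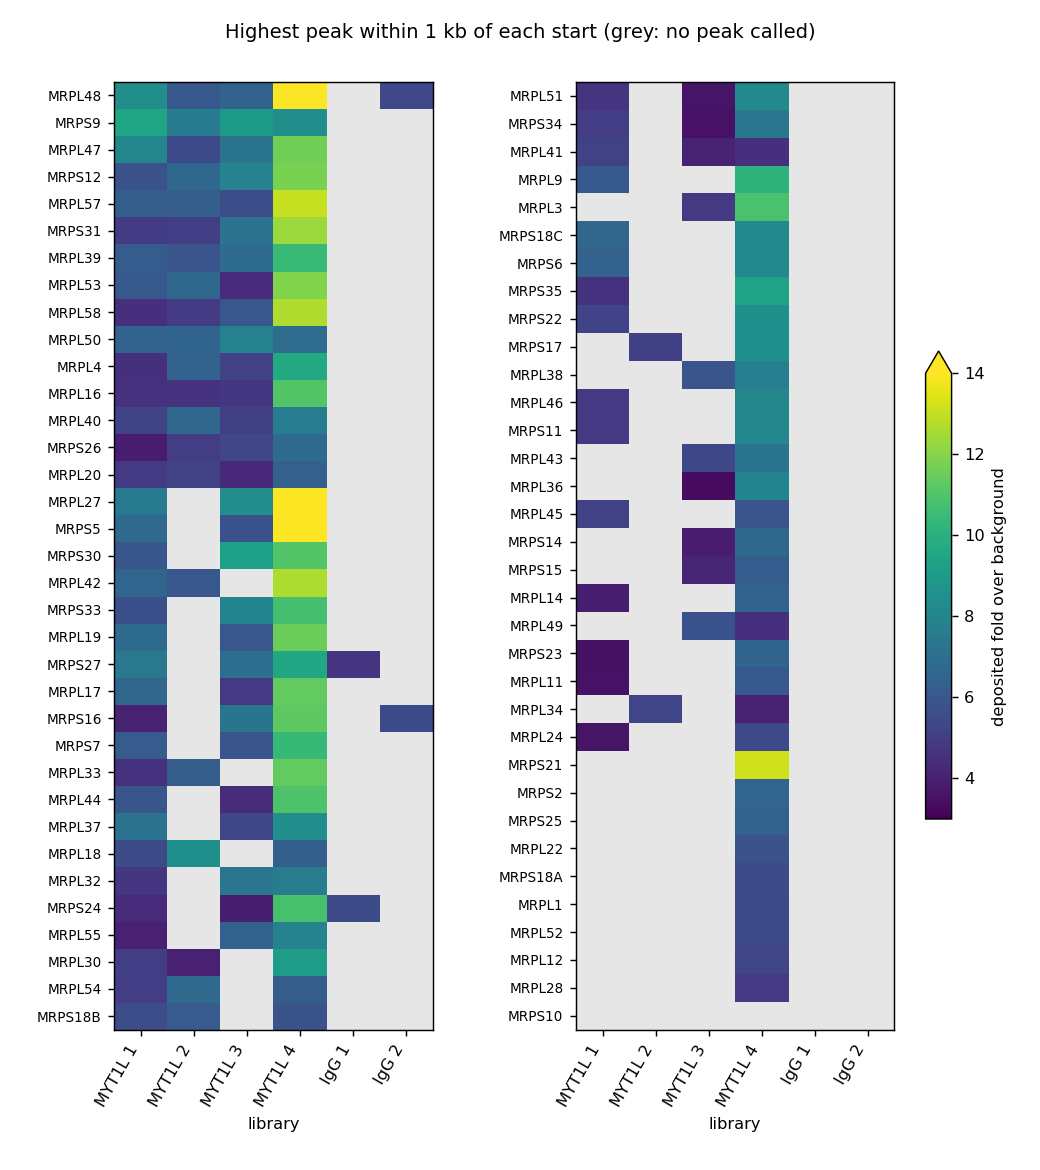
Deposited fold over background of the highest peak within 1 kb of the start, for the 69 members with an annotated start (rows, ordered by number of MYT1L libraries with a peak and then by mean fold) in the 6 libraries (columns); grey means that no peak was listed and colours above 14 are drawn alike. Replicate 4 is filled in 68 of 69 rows, replicate 2 in 23, and the IgG columns in 2 rows each.

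Peak heights were compared within each library, because the deposited fold sets a pileup plus 1 against a background plus 1 and so depends on depth. The median fold of peaks with a summit within 1 kb of a member start was 5.22, 6.04, 5.75 and 8.16 in MYT1L replicates 1 to 4. The medians over all protein-coding starts were 5.44, 5.78, 5.63 and 7.57. The difference was -0.224, 0.261, 0.125 and 0.596, a mean of 0.190 ± 0.340 (SD, n = 4), which is smaller than its spread over libraries. Peaks at member starts were therefore about as high as those at other promoters. Replicate 4 had the highest fold at 51 of the 59 member starts with peaks in at least 2 MYT1L libraries (86.4%), as at 85.8% of all such starts.

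Summits lay close to the start. Member summits within 250 bp of the start made up 76.9%, 91.3%, 89.7% and 82.9% of those within 1 kb in replicates 1 to 4, against 66.7%, 69.2%, 73.4% and 67.7% over all starts. The share was higher for members in each of the 4 libraries. The median summit was 58 bp upstream of the start in replicate 1 (-58 bp) and 45, 16 and 90.5 bp downstream in replicates 2, 3 and 4. Member start peaks were also narrower, with median widths of 422, 292, 348 and 615 bp against 463, 327, 392 and 686 bp.

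**Figure D3:**
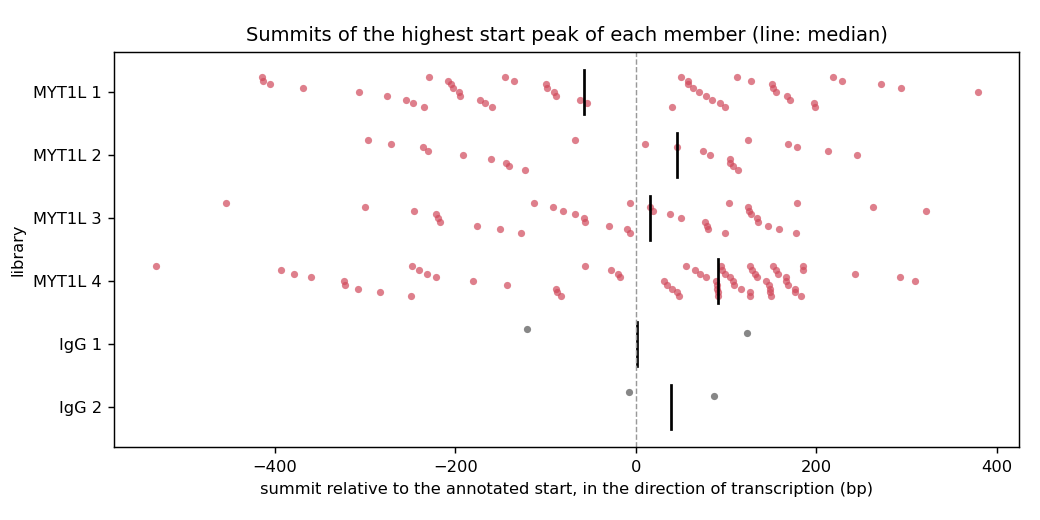
Position of the summit of the highest start peak of each member (points) relative to the annotated start, in bp along the direction of transcription, in each of the 6 libraries (rows); the vertical bars are medians. The medians of the MYT1L libraries run from -58 to 90.5 bp, and most points lie within 250 bp of the start.

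The windows of the members held 116 regions, 53 of them reproducible and 20 with peaks of all 4 MYT1L libraries. Their median width was 695 bp, against 794 bp over the 12299 reproducible regions of the genome. An IgG peak overlapped 5 of the 53 (9.43%), close to the 9.82% of all reproducible regions. The 5 became 2 without IgG replicate 1 and 3 without IgG replicate 2.

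Among MRPL genes 31 of 49 were called (63.3%), and among MRPS genes 14 of 28, a difference of 13.3 percentage points with a 95% interval of -9.04 to 34.4. This interval holds 0. Restricted to peaks whose −log10 q reached 5, the difference over the window was -3.06 points, the other way. No difference between the subunits was therefore detectable over the window. At the start the counts were 24 of 42 (57.1%) and 10 of 27 (37.0%), and no interval was computed for that difference. It narrowed when regions with an IgG peak were kept, with a reproducible region at the start of 25 of 42 and 13 of 27.

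By origin, 24 of 44 members with a bacterial counterpart were called (54.5%) and 20 of 31 mitochondria-specific members (64.5%). At the start the counts were 16 of 37 (43.2%) and 18 of 31 (58.1%). The lowest share was that of MRPS genes with a bacterial counterpart, 4 of 14 called at the start, and the highest that of mitochondria-specific MRPL genes, 12 of 19. These groups are small and the differences were not tested.

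Among MRPL genes with a bacterial counterpart, 4 had start peaks in all 4 MYT1L libraries: MRPL4, MRPL16, MRPL20 and MRPL47. MRPL47, the counterpart of bacterial L29, had folds of 8.06, 5.44, 7.22 and 11.6 in replicates 1 to 4 (mean 8.08 ± 2.59, SD, n = 4). Its summits lay 221 to 323 bp upstream of the start (-276, -230, -221 and -323 bp), farther out than most. The region also overlapped an end of NDUFB5, an oxidative phosphorylation gene without an annotated start. MRPL4, which lines the tunnel for the growing chain, had folds of 4.52, 6.47, 5.17 and 9.74 (mean 6.48 ± 2.32). In both genes replicate 4 was the highest, and for MRPL4 the replicate 1 value was the lowest.

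MRPL27 had the highest fold of any member, with 7.48, 8.44 and 17.4 in replicates 1, 3 and 4 and no peak in replicate 2 (mean 11.1 ± 5.50, n = 3). Its peak in replicate 4 had a pileup of 63 over a background of 2.67 and a −log10 p of 63.0, above 98.9% of that list. The summit lay 90 bp after the start, downstream of both CCGGAAG sequences shown above.

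Mitochondria-specific MRPL genes made up 7 of the 15 members with a start peak in all 4 MYT1L libraries. MRPL57 had folds of 6.25, 6.23, 5.66 and 13.03 (mean 7.79 ± 3.50), so replicate 4 lay far above 3 close values. MRPL39 had 6.22, 5.91, 6.83 and 10.4 (mean 7.34 ± 2.08), and MRPL53 had 6.04, 6.72, 4.33 and 11.9 (mean 7.26 ± 3.28). MRPL58, a peptidyl-tRNA hydrolase built into the ribosome that can release stalled chains, had 4.51, 4.95, 5.99 and 12.7 (mean 7.03 ± 3.81). MRPL50 was the exception, with 6.51, 6.56, 7.83 and 6.92 (mean 6.96 ± 0.612), where replicate 3 and not replicate 4 was the highest. Its spread was the smallest of the 10 highest members called at the start in all 4 libraries.

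Among MRPS genes, MRPS9, a universally conserved protein of the small subunit, had the highest mean of these 10, with 9.50, 7.51, 9.01 and 8.42 in replicates 1 to 4 (mean 8.61 ± 0.858). The 4 values lay close together, with pileups of 24, 11, 18 and 28 fragments over backgrounds of 1.63, 0.599, 1.11 and 2.44. Replicate 1 was the highest and the shallow replicate 2 the lowest. The region spanned chr2:105037629-105038416 and held the start of MRPS9, whose gene runs from 105038069 to 105099960.

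MRPS12, a protein of the decoding centre, had 5.71, 6.72, 7.87 and 11.8 (mean 8.02 ± 2.67). All 4 of its summits lay upstream of the start, at -307, -297, -246 and -322 bp, which is beyond the start of its divergent neighbour SARS2. MRPS31 had 4.90, 5.03, 7.18 and 12.4 (mean 7.37 ± 3.48), with summits from -91 to 91 bp around the start. The folds of both genes were highest in replicate 4, above those of the other 3 libraries.

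**Figure D4:**
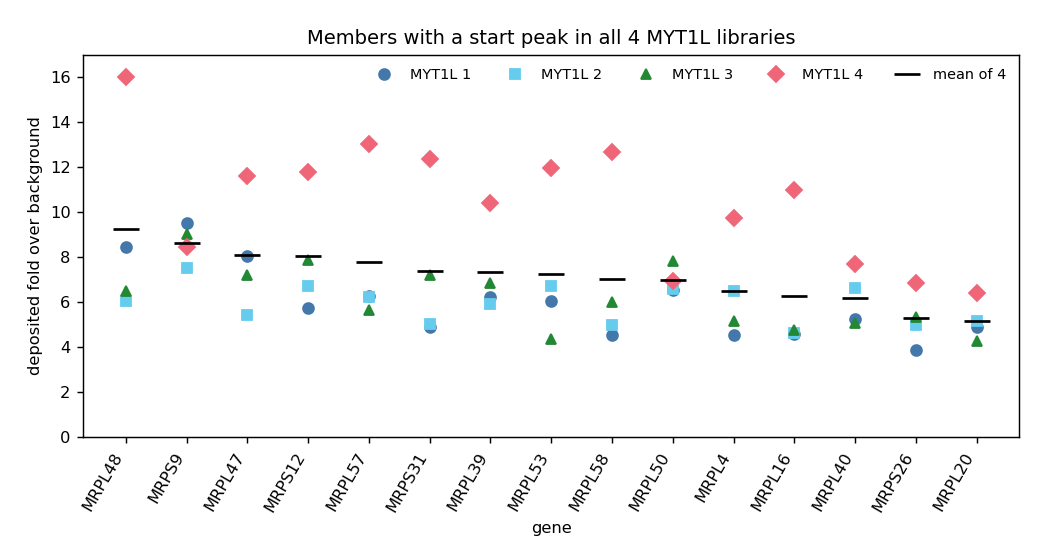
Deposited fold over background of the highest start peak in each MYT1L library (points) and the mean of the 4 (bars) for the 15 members with a start peak in all 4 libraries. Replicate 4 (red diamonds) is the highest in 13 genes, while in MRPS9 and MRPL50 another replicate is.

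The 15 members with a value in each of 4 libraries are shown in the plot of start-peak folds by library. Of these, MRPL48 had the highest mean but also an IgG peak. The widest reproducible regions belonged to MRPL40 (1612 bp), MRPL18 (1399 bp), MRPS7 (1323 bp), MRPS26 (1282 bp) and MRPL51 (1091 bp). In 4 of these 5 the region overlapped the end of a neighbouring gene as well as the member's own start: HIRA beside MRPL40, TCP1 beside MRPL18, GNRH2 beside MRPS26 and NCAPD2 beside MRPL51. The wide region of MRPS7 lay 8570 bp from its start, at the gene MIF4GD.

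Members often shared their promoter. The annotated start of another protein-coding gene lay within 1 kb of 23 of 69 member starts, 33.3%, compared with 13.9% of all starts. Genes without an annotated start were not seen as neighbours, so shared promoters may be missed. The region at the MRPL47 start, for example, also overlapped an end of NDUFB5, which has no annotated start. A region at such a promoter cannot be assigned to 1 of the genes. Of these 23 members 14 were called at the start (60.9%), against a background of 62.9% of genes with a close start. Of the 46 without an annotated close start, 20 were called (43.5%), against 36.7%. Over gene windows the shares were 69.6% and 54.3%, a difference of 15.2 points with an interval of -9.27 to 35.7, which holds 0. The difference was 2.17 points without MYT1L replicate 1, 10.9 without replicate 4, 17.4 without replicate 2 and 26.1 without replicate 3, and 0 with all 4 libraries required.

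The partners have varied roles. MRPS12 and SARS2, the gene of the mitochondrial seryl-tRNA synthetase, stand head to head 181 bp apart and shared 1 region with peaks in all 4 MYT1L libraries. MRPL57 and SKA3, a kinetochore gene, lie 106 bp apart and MRPL50 and ZNF189 233 bp apart, both pairs with peaks in all 4. MRPL27 lies 45 bp from EME1, a DNA repair gene, MRPL32 lies 202 bp from PSMA2, a proteasome subunit gene, and MRPL18 lies 210 bp from TCP1, a subunit gene of the cytosolic chaperonin. Each of these 3 pairs had peaks in 3 libraries. MRPL49 lies 49 bp from FAU, which encodes a cytosolic ribosomal protein, and that promoter had peaks in 2.

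MRPL46 and MRPS11, a large-subunit and a small-subunit member, stand head to head 320 bp apart on chromosome 15. Their common region had peaks in replicates 1 and 4 alone, with folds of 4.81 and 8.08, and so was not called. The replicate 4 summit lay 40 bp after the MRPL46 start.

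Of the 41 called members with an annotated start, 7 were called only through a region away from it: MRPL12, MRPL22, MRPL34, MRPL49, MRPS15, MRPS16 and MRPS27. In 5 of these 7 the region held the start of another gene. For MRPL12, a protein of the ribosomal stalk, it was SLC25A10 (a mitochondrial carrier), 8536 bp from its own start. For MRPL22 it was GEMIN5, for MRPL34 ABHD8, for MRPL49 ZNHIT2 and for MRPS16 DNAJC9, so these 5 calls rest on neighbours. The region counted for MRPS15 lay at an end of OSCP1. That of MRPS27 lay inside its own gene, at chr5:72308055-72308670, 11570 bp from the start, with folds of 9.23, 4.83, 9.26 and 13.2 (mean 9.13 ± 3.42, n = 4). Of the 4 called members without an annotated start, MRPL35 was called only through a region at the start of IMMT, outside its own gene. MRPL2 was called only through a region at an end of CUL7, also outside its own gene.

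An IgG peak overlapped a reproducible region of 4 members. At the MRPL48 start (chr11:73787818-73788238) the MYT1L folds were 8.43, 6.04, 6.48 and 16, and IgG replicate 2 had a peak of fold 5.43 with a pileup of 6. A second MRPL48 region, 8375 bp into the gene, held a peak of IgG replicate 1 with a fold of 5.07. At the MRPS16 start the MYT1L folds were 4.06, 7.28 and 11.3 in replicates 1, 3 and 4, and IgG replicate 2 had 5.47. These folds are relative to each list's own background, so they do not compare signal between antibodies.

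MRPS24 had 4.32, 3.90 and 10.8 at the start in replicates 1, 3 and 4 with an IgG replicate 1 peak of 5.50. MRPS27, which carries RNA-binding repeats, had 7.41, 6.99 and 9.59 in the same replicates with an IgG replicate 1 peak of 4.70. No member had an IgG peak at its start in both controls.

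Of the 300 bases from 250 before to 50 after the start, AAGTT or its reverse complement AACTT was present in 29.0% of members, as in 29.3% of all promoters. The longer AAAGTTT, which contains AAGTT, was present in 5 of 69 members (7.25%), against 3.56%. Among members called at the start 11 of 34 had AAGTT (32.4%), and among the others 9 of 35 (25.7%). In counts this small such a difference is no result. Over all starts the order was the other way, with AAGTT in 22.5% of those called and 33.9% of the others. The searched bases end 50 after the start, while the call reaches 1 kb to either side. The median member summit in MYT1L replicate 4 lay 90.5 bp after the start, so the bases under many peaks were not searched. Other sequences were searched on both strands in the same window. AAGATGG was in 33.3% of members against 6.40% of all promoters, CCGGAAG in 42.0% against 14.2%, and TGCGCA in 20.3% against 10.8%. CCAAT was in 29.0% against 36.4%. The median GC content of the 300 bases was 60.3% for members and 62.7% for all starts.

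AAGATGG was in 29.4% of members called at the start and 37.1% of the others, and CCGGAAG in 47.1% and 37.1%. TGCGCA was in 20.6% and 20.0%. Over all starts, called and not called, the shares were 7.47% and 5.67% for AAGATGG and 20.5% and 9.99% for CCGGAAG. For TGCGCA they were 14.5% and 8.20%. Cytosolic ribosomal protein promoters had AAGATGG in 12.9%, CCGGAAG in 32.9% and TGCGCA in 15.7%. These differences between shares were not tested.

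The other genes that build and serve the mitochondrial ribosome were taken from a list of 63. Of these 45 were called over the gene window (71.4%) and 39 of 58 at the start (67.2%), against 48.0% and 40.4% over all genes. Their median length was 20184 bp, more than that of the members. By role, the tRNA synthetases of the organelle were called in 17 of 19 cases, and in 15 of 16 at the start. Their median length was 33874 bp, against 24115 bp for all genes, and the part of length in the window share was not tested. The translation factors were called in 8 of 11, the assembly factors in 14 of 23, the ribosomal proteins with other names in 3 of 5 and the genes of mitochondrial transcription in 3 of 5. All 58 starts had a peak in MYT1L replicate 4.

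Among the ribosomal proteins with other names, DAP3, a GTP-binding protein of the small subunit, had start folds of 9.90, 8.40 and 10.1 in replicates 1, 3 and 4. AURKAIP1 had 4.00, 5.60 and 4.45, and CHCHD1 had 4.94, 4.48 and 6.83, in the same 3 libraries. These were the 3 that were called. PTCD3 had a start peak in replicate 4 alone (8.98), and GADD45GIP1 had 5.97, 5.91 and 7.48 in replicates 2, 3 and 4 but also a peak of 6.06 in IgG replicate 2.

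TFAM, which packages mitochondrial DNA, had start folds of 6.87, 4.93, 6.34 and 9.69 in the 4 MYT1L libraries. TUFM, the elongation factor that brings aminoacyl-tRNA to the ribosome, had 3.41, 4.44, 4.59 and 6.50. POLRMT, the mitochondrial RNA polymerase, had a peak at the start in replicate 4 alone (5.46) and 1 elsewhere in its window in replicate 3. TFAM and TUFM were called and POLRMT was not.

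Cytosolic ribosomal protein genes, the group most like the members in function, were called in 50 of 87 cases (57.5%) and at 25 of 70 starts (35.7%). Nuclear genes of oxidative phosphorylation, most of whose products share complexes with those the mitochondrial ribosome makes, were called in 44 of 89 cases (49.4%) and at 34 of 71 starts (47.9%). Without MYT1L replicate 2, and with 2 of the other 3 libraries required, the 44 became 67. At that setting the share over all genes rose from 48.0% to 63.3%. The members, at 58.4% and 49.3%, lay close to the cytosolic ribosomal protein genes over the window and to the oxidative phosphorylation genes at the start. In MYT1L replicate 4, 94.3% of the cytosolic ribosomal and 88.7% of the oxidative phosphorylation starts had a peak, compared with 98.6% for the members. No test of these differences was made, and the lists and their differences are described by counts.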

How the data were processed

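Peaks of CUT&RUN libraries (4 MYT1L, 2 IgG) were deposited as 1 list per library without a header. MACS2 and hg38 are named in the submitters' processing notes; the aligner, thresholds and control used are not given in the sources used here. Each peak carries the authors' score, fold enrichment (a ratio over background), −log10 p and −log10 q; nothing states that replicates were pooled. All are the authors' values per peak and were used only within a list.

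Groups and replicate numbers came from the titles. Regions were MYT1L peaks joined by an overlap of at least 1 bp. Genes and starts came from RefSeq tables of GRCh38, with a start for 69 of 77 members and 15842 of 20037 genes. The start of a member is that of the promoter table and need not be the end of its gene; exons and introns were not assigned. Pileup and background were recovered from the formulas of the caller, with whole-number pileups within 0.0002 of the deposited −log10 p in at least 99.97% of peaks with a −log10 p up to 200. Shares have 95% Wilson intervals. No test was made, since members and lists were chosen with earlier results of these data known; an exact permutation over the 15 ways to divide the libraries into 4 and 2 cannot give a two-sided p, with the tail doubled, below 0.133.

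Genes named were the 10 with the highest mean fold of a region at the start in all 4 MYT1L libraries without an IgG peak, those with an IgG peak in a region, those without a MYT1L peak, the 5 with the widest region, those called only away from the start, and 8 of the translation list; others (MRPL27, MRPL46, MRPS11, MRPS21, members with a peak in replicate 4 alone, shared promoters) were chosen after their values were seen. Alternatives changed the number of libraries, the −log10 q, the number of peaks, the overlap, the windows and the libraries used. Calling and pileup recovery were tested on simulated data, and regions were checked with bedtools. Python 3.11.15, pandas 2.3.3, numpy 2.4.6 and scipy 1.17.1 were used.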

Additional observations from a re-analysis of the deposited data

Results flagged for a closer look

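Of the 15 members with a start peak in all 4 MYT1L libraries and 6 other sets of 4 values, 2 had 1 library far from the others; chance gives about 1 in 20. The start fold of MRPL16 was 4.58, 4.63 and 4.77 in replicates 1 to 3 and 10.99 in replicate 4, a gap of 0.971 of the range. That of MRPL57 was 6.25, 6.23 and 5.66 in replicates 1 to 3 and 13.03 in replicate 4, a gap of 0.920 of the range. In both genes replicate 4 was the high library, as at 86.4% of member starts with peaks in at least 2 libraries and 85.8% of all such starts.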

How the results depend on the processing

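Of 96 alternative values, 74 stayed within their limits, 20 moved and 2 reversed. Members called numbered 45, but 19 with all 4 libraries required (24.7% against 25.3% of all genes) and 26 when only peaks with −log10 q of 5 or more were used (33.8% against 30.6%); with at least 2 libraries they were 64 (83.1% against 65.3%). Leaving out 1 library gave 44 to 63, and for the MYT1L libraries 57.1% to 81.8% of members against 49.3% to 63.3% of all genes. Members called at the start numbered 34, but 55 with at least 2 libraries (79.7% against 54.6% of all starts), 14 with all 4 (20.3% against 21.3%) and 21 on the −log10 q limit (30.4% against 25.9%); leaving out 1 library gave 33 to 53, from 47.8% against 39.9% to 76.8% against 52.9%, the highest without MYT1L replicate 2. Whenever a MYT1L library was left out, 2 of the other 3 were required.

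The difference in members with a peak between MYT1L and IgG libraries was 51.25, but -1 with equal numbers of top peaks in all 6 libraries; leaving out 1 library gave 43.8 to 59.8. With a replicate block, pairing samples 1 and 2 by title, it was 42. The correlation of the paired differences over starts was 0.00163. Only 0.713% and 1.98% of starts had a peak in IgG replicates 1 and 2, so this correlation cannot decide whether the samples were paired. The excess in start-peak fold was 0.190, or 1.22 on the −log10 p scale, and 0.0541 to 0.328 with 1 library left out. Member regions with an IgG peak numbered 5, but 1 with all 4 libraries, 0 on the −log10 q limit, 2 with equal numbers of top peaks, and 2 to 5 with 1 library left out (2 without IgG replicate 1, 3 without IgG replicate 2).

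The subunit difference of 13.3 points was -3.06 on the stricter −log10 q limit and 0.510 to 16.3 with 1 library left out. The difference by close start, 15.2 points, was 2.17 to 26.1 with 1 library left out, 0 with all 4 libraries and 26.1 on the −log10 q limit. The other mitochondrial translation genes called were 45, but 25 with all 4 libraries and 27 on that limit (45 to 52 with 1 library left out). Cytosolic ribosomal protein genes were 50, but 22 and 27 (49 to 69). Oxidative phosphorylation genes were 44, but 68 with at least 2 libraries, 21 and 25 (46 to 67, the highest without MYT1L replicate 2). The counts fall with stricter rules because fewer regions qualify; other causes were not tested. A start without a listed peak had a signal below the threshold of that list, and the part of depth was not tested.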

Other observations

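The gene table also lists 106 pseudogenes of mitochondrial ribosomal proteins, copies outside the 77 members, with a median length of 519.5 bp. The window call was met by 5 of them (4.72%), and for 1 of these the region overlapped the pseudogene itself. Any MYT1L peak region lay in the windows of 17 and overlapped 5 of the pseudogenes themselves. Other pseudogenes and other short loci were not counted, so these counts have no background beside them. Short near-identical copies can lose or share reads in mapping, and the mapping rules are not given in the sources used here.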
